A study of Mus musculus with 19 samples.

Results

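Processed pseudogenes are copies of a messenger RNA that were written back into DNA and inserted at another place in the genome. They lack the introns of their parent gene and usually its promoter, so whether a copy is transcribed depends on where it landed, and most are silent. Genes that are strongly transcribed in the germ line and the early embryo, such as those of ribosomal proteins, have left many such copies, and a copy that is young still has nearly the letters of its parent. A read from such a copy can then often not be told from a read of the parent. Whether a given copy is present at all can differ between mouse strains.

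The pseudogenes described here are the rows that GENCODE M21 annotates as processed pseudogenes and that reached 5 CPM or more (CPM, the estimated count of a gene divided by the total of its library, times 1e6) in at least 2 libraries. There were 150 of these among 9508 processed pseudogenes in the table, of which 4693 were above 0 in any library. The members were chosen by these CPM values, so the height of their levels is a description and no finding. The members just inside the limit were Gm650 and Gm11225, with second-highest values of 5.17 and 5.23 CPM, and those just outside were Gm11841 (4.99) and Gm8741 (4.98).

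The cells were mouse induced pluripotent stem cells. They were made from fibroblasts of embryos at embryonic day 14.5, bred from OB-Rdb/+ heterozygous mice, by infection with the STEMCCA lentivirus, which carries the mouse Oct4, Sox2, Klf4 and cMyc genes, so that all lines share this vector. The control group (db_ctrl) held 7 libraries of 4 wild type lines named aB6_A5, aB6_B1, bB6_A5 and bB6_B1. The mutant group (db_mut, db/db) held 8 libraries of 4 lines in which both copies of the leptin receptor gene carry the db mutation, named adb_db5, adb_db7, bdb_db5 and bdb_db7. The corrected group (db_corrected) held 4 libraries of 2 lines, db_c_1 and db_c_2, in which CRISPR-Cas9 had repaired the mutation, and the db/db line from which they came is not given in the sources used here. Estimated counts per library summed to 27333914 to 41203703. The libraries of a line are not stated to be separate cultures, so the line was the unit (n = 4, 4 and 2), and p-values measure only the spread between these lines. Lines of a shared name (A5, B1, db5, db7) had similar levels in members such as Gm9855 and Gm12191, and bdb_db7 differed from adb_db7 in others, such as Gm6158, Rps13-ps2 and Gm10221. In such bulk samples fewer cells of a type and less RNA per cell cannot be told apart. All 10 markers of pluripotent cells were at 1 CPM or more in every line. The mutated gene Lepr itself was at 0.34 to 0.459 CPM in control, 0.176 to 0.357 in db/db and 0.66 to 0.779 in corrected lines, so its low level gives no check of the labels.

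A parent was assigned to each pseudogene by sequence: the protein-coding gene with the best match over at least 50% of the pseudogene at 70% identity or more. A parent was found for 146 of the 150, and for 111 of them (94 different parents) the match covered at least 50% of the parent's coding sequence. The parent that the symbol names, as in Tdg-ps, was the same gene in 30 of 30 cases. Identity to the parent was 100% for 54 of the 111, with a median of 99.9%. Of the 150, 100 lay between annotated genes, 41 in introns (21 on the strand of the host gene and 20 on the opposite strand) and 9 over exons, 8 of these on the opposite strand. Only 13 were on the chromosome of their parent.

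The sequences of 5 pseudogenes that were on in the lines of 1 group and off in the other are shown first, since the letters in which they differ from the parent are what lets a read be placed. On means 5 CPM or more in every line of a group and off means under 1 CPM in every line of the other. Each window has 80 bases without gaps inside the parent's coding sequence and was chosen to hold as many differences as possible. Capitals mark the bases that differ between copy and parent, and both are written 5′ to 3′ as transcribed.

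Tdgf1-ps1 copies Tdgf1, which encodes Cripto, a Nodal co-receptor of the early embryo. The window lies at chr16:3730917-3730996 (GRCm38, plus strand), between annotated genes, and holds 3 of the 6 single-base differences in 512 aligned bases.
Tdgf1-ps1: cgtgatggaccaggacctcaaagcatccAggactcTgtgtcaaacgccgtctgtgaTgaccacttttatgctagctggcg
Tdgf1: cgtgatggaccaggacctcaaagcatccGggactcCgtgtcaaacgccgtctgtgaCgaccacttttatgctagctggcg

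Gm4322 copies Bex4, a small X-linked gene, and the window lies at chr1:150269157-150269236 (GRCm38, minus strand), between annotated genes. The alignment had 2 single-base differences and 17 gap positions, and the window holds 1 difference.
Gm4322: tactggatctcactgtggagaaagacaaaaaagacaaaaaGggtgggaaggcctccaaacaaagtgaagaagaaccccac
Bex4: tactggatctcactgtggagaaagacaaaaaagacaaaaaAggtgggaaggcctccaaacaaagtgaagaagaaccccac

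Gm6969 copies Cox7a2l, which encodes a protein of respiratory supercomplexes, and the window lies at chr12:24638672-24638751 (GRCm38, minus strand), between annotated genes. The alignment had 2 single-base differences and 6 gap positions.
Gm6969: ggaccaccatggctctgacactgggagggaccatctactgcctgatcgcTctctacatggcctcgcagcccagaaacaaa
Cox7a2l: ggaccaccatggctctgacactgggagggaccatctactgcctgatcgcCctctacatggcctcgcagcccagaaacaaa

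BC002163 copies Ndufs5, a subunit of complex I of the respiratory chain, and lies in an intron of Zbtb20 on its strand. The window is chr16:42955683-42955762 (GRCm38, plus strand) and holds both single-base differences in 319 aligned bases.
BC002163: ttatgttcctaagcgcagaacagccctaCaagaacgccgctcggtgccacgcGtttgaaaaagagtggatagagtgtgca
Ndufs5: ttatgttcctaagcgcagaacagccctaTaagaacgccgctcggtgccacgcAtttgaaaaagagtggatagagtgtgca

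Gm9855 copies Tdg, the thymine DNA glycosylase that removes oxidised methylcytosine, and the window lies at chr10:42054185-42054264 (GRCm38, minus strand), between annotated genes. It holds 4 of 9 single-base differences in 1194 aligned bases.
Gm9855: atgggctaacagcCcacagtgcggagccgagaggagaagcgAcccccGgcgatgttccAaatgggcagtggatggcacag
Tdg: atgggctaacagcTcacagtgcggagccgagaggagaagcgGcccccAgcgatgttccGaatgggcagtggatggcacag

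How far the reads of the 150 can be placed at all was measured in the sequences and in the counts. Each transcript was cut into overlapping words of 31 bases, and a word was called a member's own when it occurred in no other annotated gene. Own words were absent in 61 of 150 pseudogenes and made up at least 10% of the words in 42 and at least 50% in 12, with a median of 2.62%. The 5 pseudogenes above had 31.7% (Tdgf1-ps1), 19.9% (Gm4322), 21.8% (Gm6969), 19% (BC002163) and 9.54% (Gm9855). The program that made the counts divides a read between transcripts that match it equally, which leaves counts that are not whole numbers. The count was whole (within 1e-06) in no library for 129 of the 150 pseudogenes, compared with 2733 of 10744 protein-coding genes of the same level rule, and was whole in every library for 2 against 4881.

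**Figure D1:**
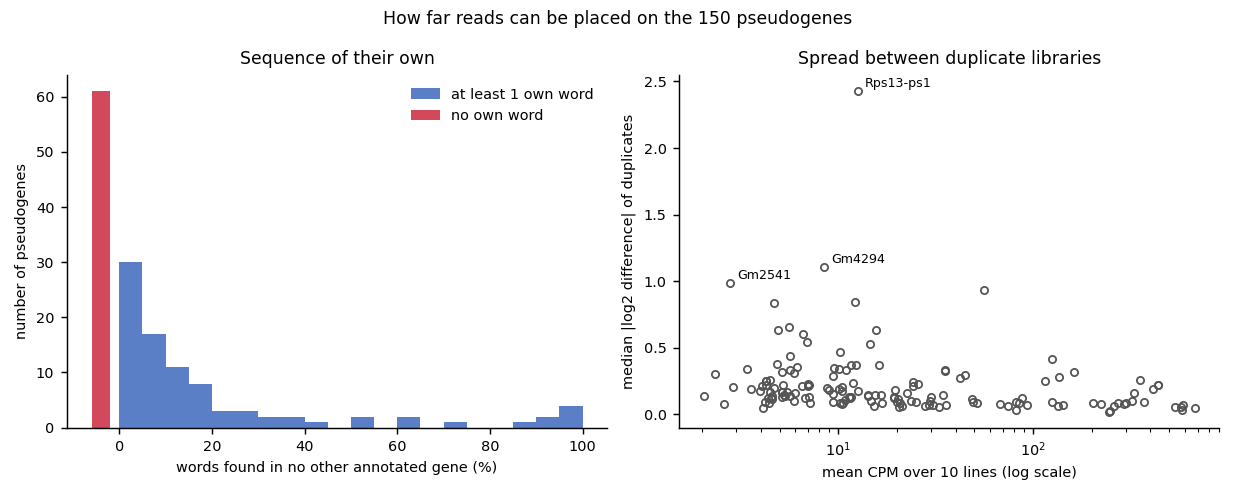
Left, the number of pseudogenes by the share of their 31-base words found in no other annotated gene, with the 61 that have none as a bar left of 0. Right, for each pseudogene (circle), the median absolute log2 difference between duplicate libraries of a line against its mean CPM on a log scale, where Rps13-ps1 is highest at 2.43 and the median of all members is 0.144.

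The median absolute log2 difference between the duplicates of a line was 0.144 for the members and 0.078 for the protein-coding genes (CPM + 0.5). In 6 members (4%) at least 1 line had a library under 1 CPM beside a library at 5 CPM or more, compared with 5 of 10744 protein-coding genes (0.0465%). These were Rps12l1, Mageb16-ps2, Rps13-ps1, Gm4294, Gm8430 and Pgam1-ps2, with 0 to 7.68% own words. Rps12l1, a copy of a ribosomal protein gene with no own word, was at 1.78 and 31.9 CPM in the libraries of aB6_B1, at 48.7 and 0.0052 in those of bB6_B1, and at 22.0 and 0.241 in those of adb_db7. Duplicates of 1 line thus fell on both sides of the limits for on and off. There were 3 pairs of copies that had equal values in every library: Gm12671 with Gm10359 (Gapdh), Gm10171 with Gm10233, and Gm8783 with Gm15801. They are counted as separate rows here but carry 1 measurement each.

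The highest member by mean CPM, Gm10123, copies the cyclophilin gene Ppia and was at 703 to 785 CPM in control, 635 to 734 in db/db and 523 to 558 in corrected lines. Per kilobase of transcript, its mean over lines was 1379 CPM, followed by Rps23-ps1 at 1364 and Gm7536, a copy of Rpl27a, at 1297. These 3 match their parent at 100% identity and have no own word, so their level is the share of family reads that the program assigned to them. Among the 10 highest only Gm48348 (no parent, 37.6% own words) and Eif4a-ps4 (2.61%) had own words.

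Which members were on in control and off in db/db lines was the next question. Tdgf1-ps1 was at 20.3 (aB6_A5), 24.1 (aB6_B1), 20.2 (bB6_A5) and 23.6 CPM (bB6_B1) in control lines. In db/db lines it was at 0.15, 0.208, 0.0894 and 0.0923 CPM, and in the corrected lines at 0.156 and 0.283. The control lines did not overlap the other lines, and the corrected lines lay with the db/db lines. Gm4322 was at 16.7, 17.8, 17.8 and 19.3 CPM in control lines, and its 4 db/db lines held 5 reads in all and its 2 corrected lines 1. Gm6969 was at 11.1, 10.7, 9.70 and 10.5 CPM in control lines, at 0.041 to 0.164 in db/db lines and at 0.312 and 0.0943 in corrected lines.

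In the opposite direction 2 members were on in db/db and off in control lines. Gm9855 was at 0.267, 0.159, 0.102 and 0.0717 CPM in control lines. It was at 39.9 in adb_db5, 20.1 in adb_db7, 39.9 in bdb_db5 and 20.5 in bdb_db7, and at 17.5 and 16.6 in the corrected lines. The db5 lines were thus at a higher level than the db7 lines, and the corrected lines were slightly below the db7 lines. BC002163 was also higher in the db5 than in the db7 lines, with the corrected lines between both db7 lines: 0 to 0.117 CPM in control lines, 25.4 and 25.1 for db5, 12.4 and 9.87 for db7, and 10.5 and 10.3 for the corrected lines.

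These 5 members were 3.33% of the 150. The same rule found 0 of 10744 protein-coding genes (0%) on in 1 group and off in the other in either direction. All 5 kept the state of the db/db lines in both corrected lines, which took no part in the choice: the 3 members off in db/db were under 1 CPM there and the 2 members on in db/db were above 5 CPM. Against control lines, the corrected lines differed in all 5 in edgeR's quasi-likelihood test (p-values adjusted by Benjamini-Hochberg across the 19700 genes tested). The choice had fixed the control levels in this comparison, so the p-values describe the size of the difference and are no independent support. The adjusted p was 3.9e-06 for Tdgf1-ps1, 4.4e-07 for Gm4322, 5.8e-05 for Gm6969, 2.2e-05 for Gm9855 and 7.5e-05 for BC002163. The ratio of mean CPM of the on group to the off group was 163 for Tdgf1-ps1, 943 for Gm4322, 92.0 for Gm6969, 200.5 for Gm9855 and 299.6 for BC002163, which describes the choice and is no test of it.

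Just outside the rule were Gm13456 and Tdg-ps, named after their values were seen. Gm13456, a copy of the elongation factor gene Eef1a1 with 26.8% own words, was at 36.6, 52.2, 47.0 and 52.4 CPM in control lines, 1.26 to 1.55 in db/db lines and 1.05 and 1.19 in corrected lines. Tdg-ps, a second copy of Tdg on chromosome 15, was at 0.0145 to 0.158 CPM in control lines, 10.7 and 11.5 for db5, 4.65 and 4.79 for db7 and 3.71 and 3.93 for the corrected lines. It too was higher in the db5 than in the db7 lines. Gm9855 and Tdg-ps share 875 of the 1164 words of Gm9855, so they are not independent of each other.

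**Figure D2:**
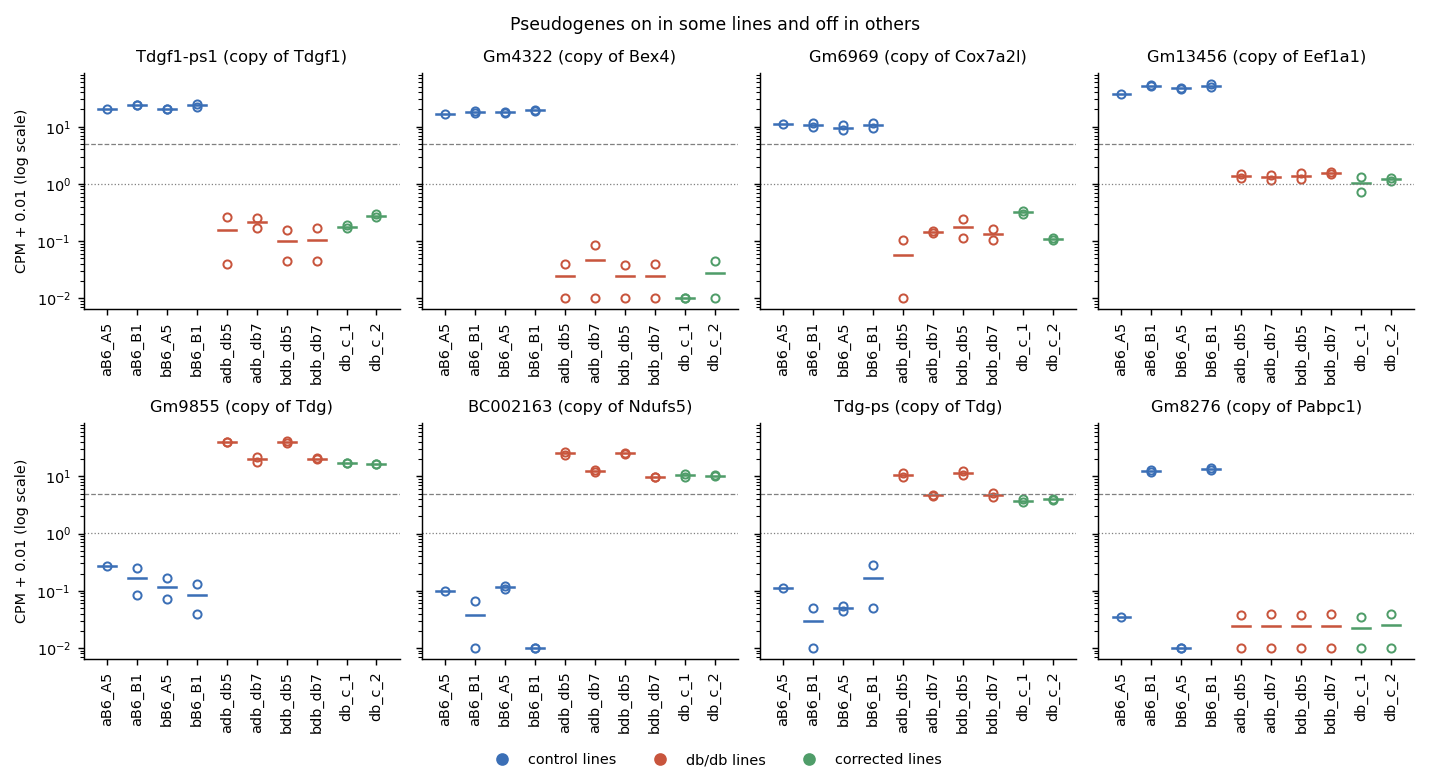
CPM + 0.01 (log scale) of 8 pseudogenes by line. Circles are libraries, short bars the mean of a line, the dashed line is 5 CPM (on) and the dotted line 1 CPM (off). The corrected lines lie with the db/db lines in the first 7 panels, and Gm8276 is high in the B1 lines only.

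On and off states also differed between lines of 1 group. Gm8276, a copy of the poly(A)-binding protein gene Pabpc1 with 71.8% own words, was at 12.4 and 13.5 CPM in the B1 control lines. It had 1 read over the A5 control lines and was at 0.0137 to 0.016 CPM in all db/db and corrected lines. Gm12191, a copy of the ribosomal protein gene Rpl30 in an intron of Cnot6 on the strand of that gene, was at 234 and 251 CPM in the B1 lines, 0.34 and 1.27 in the A5 lines and 0 to 0.708 in the other lines. It missed the rule through the 1.27 CPM of bB6_A5 and was named after its values were seen. It has no own word.

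The edgeR test of db/db against control, which treats lines as independent, called Gm8276 (adjusted p = 0.023) and Gm12191 (0.018) lower, although A5 control lines overlap the db/db lines in both. No member was on in the db5 and off in the db7 lines or the reverse.

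The parents of the switched copies were compared in the same lines. Ndufs5, the parent of BC002163, was at 39.1, 40.7, 41.1 and 44.4 CPM in control lines, 13.1 and 13.4 for db5, 28.0 and 25.5 for db7, and 25.1 and 25.4 for the corrected lines. The parent was therefore lowest where its copy was highest. Their sum was 39.2, 40.7, 41.3 and 44.4 CPM in control lines, 38.6, 40.4, 38.5 and 35.4 in db/db lines and 35.5 and 35.8 in corrected lines. Ndufs5 alone was called lower in db/db (log2 −1.0 ± 0.23 SE, adjusted p = 0.018, edgeR), and the sum was not (−0.07 ± 0.06, adjusted p = 0.47). The parent's share of the family's estimated counts, not corrected for length, was 99.7% to 100% in control, 34.1% and 34.8% in db5, 69.3% and 72.1% in db7 and 70.6% and 71.1% in corrected lines.

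Tdg showed the same arrangement with its 2 copies. Tdg was at 101.2, 124, 104 and 126 CPM in control lines, 49.6 and 49.1 in db5, 75.3 and 76.8 in db7 and 56.4 and 56.7 in corrected lines. Tdg with Gm9855 and Tdg-ps summed to 101.5, 124, 104 and 127 CPM in control lines and to 100.2, 100.1, 100.4 and 102 in db/db lines, but to 77.6 and 77.2 in corrected lines. Tdg alone was called lower in db/db (log2 −0.82 ± 0.16 SE, adjusted p = 0.0081), and the sum was not (−0.14 ± 0.07, adjusted p = 0.19). With the shared name as the unit, Tdg and Ndufs5 were not called (adjusted p 0.18 and 0.22). In the corrected lines the sum was lower than in db/db lines (−0.55 ± 0.09, adjusted p = 0.0011). The parent held 48.9% to 49.6% of the family's counts in db5, 75.2% and 75.3% in db7 and 72.7% and 73.4% in corrected lines.

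Rpl30 mirrored Gm12191 within the control group. It was at 187 and 197 CPM in the B1 lines and at 488 and 514 in the A5 lines, compared with 435 to 514 in db/db lines. With the copy added, the B1 lines were at 420 and 447 CPM and the A5 lines at 488 and 515. In these 3 families the parent was low in the lines where its copies were high. How the counting program divided the shared reads was not tested.

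**Figure D3:**
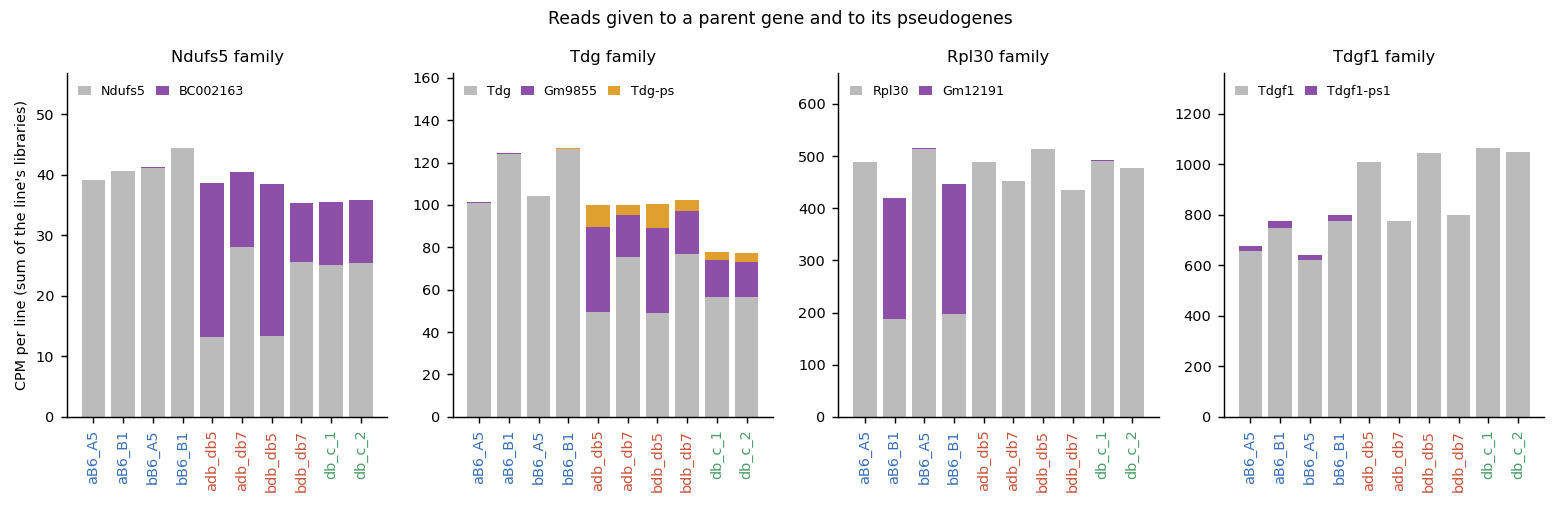
CPM per line of 4 parent genes (grey) and of their pseudogenes stacked on top (purple, orange), with line names coloured by group (blue control, red db/db, green corrected). The grey part of Ndufs5 and Tdg is smaller in db/db and corrected lines while the full bars of db/db lines stay near those of control lines, and Rpl30 shows this for the B1 lines.

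The parents of the copies off in db/db were higher there or not called. Tdgf1 was at 620 to 776 CPM in control lines, 776 to 1045 in db/db lines and 1047 and 1062 in corrected lines. It was called higher in db/db (log2 0.42 ± 0.11 SE, adjusted p = 0.027, edgeR), also when summed with its copy (0.37 ± 0.11, adjusted p = 0.041). The call of Tdgf1 ended when any 1 of aB6_A5, aB6_B1, bB6_A5, adb_db5 or bdb_db5 was left out (adjusted p 0.052 to 0.062). Tdgf1-ps1 held at most 3.16% of the family in control lines. Bex4, Cox7a2l and Eef1a1 were not called (adjusted p 0.78, 0.059 and 0.18).

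For 32 named members the log2 ratio of the copy to its parent (0.5 CPM added to each) was compared between 4 db/db and 4 control lines by an exact two-sided permutation test. The lines of both groups did not overlap in 9 ratios, among them the 5 switched copies, Gm13456 and Tdg-ps. For each of the 9 the exact permutation p was 0.029, the smallest that 70 arrangements can give, with a Benjamini-Hochberg value of 0.1 over the 32. The permutation took lines of a shared name as independent, which their similar levels do not bear out, so these p-values are too small. The levels of the switched copies had chosen them, so their ratios are a description. Gm13456, Tdg-ps and Gm9625 were named for calls between these groups without overlap of lines, so their ratios are a description too. The difference of mean log2 ratio was 6.06 for BC002163, 6.37 for Gm9855, 4.65 for Tdg-ps, −5.52 for Tdgf1-ps1, −5.37 for Gm4322, −4.32 for Gm6969 and −4.96 for Gm13456. The other 2 were Gm48035 against Gm10324 (1.02) and Gm9625 against Rplp0 (0.89).

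Across all members, edgeR called 30 of 150 (20%) between db/db and control lines, where 16.9% of all 19700 genes tested were called. The 30 were 9 higher and 21 lower, against 7.41% higher and 9.5% lower over all genes. The median log2 difference was −0.03 over the members and −0.0009 over all genes. The share called was near the background in this fit, which takes lines of a shared name as independent. With the shared name as the unit, 7 members were called, against 0.161% of 21134 genes tested: the 5 switched members, Gm13456 and Tdg-ps. The levels of the 5 had chosen them, and Gm13456 and Tdg-ps were named after their values were seen. All 7 met the 5 CPM rule only through lines where they were high, so their calls are a description. The lines of both groups did not overlap in 33 of 150 members (22%), against 22.8% of all genes. The number of members that edgeR called, 30 with all lines, was 19 without aB6_B1 and 19 without bB6_B1. The shares of all genes called without these lines are not given here. Summed levels of fibroblast markers (5 of 8 at 1 CPM or more in every line, Dcn and Lum under 0.32 CPM) were 203 to 288 CPM in control, 99 to 153 in db/db and 153 to 195 in corrected lines. Summed levels of 6 markers of the two-cell-like state were 16.9 to 24.3, 1.87 to 6.90 and 9.76 to 10.8 CPM, with Duxf3 at 1.04 CPM or less. Their part in the member counts was not tested.

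Between corrected and db/db lines 63 of 150 (42%) were called, 14 higher and 49 lower, where 36.7% of all genes were (18.7% higher and 18% lower). Between corrected and control lines 77 (51.3%) were called, 14 higher and 63 lower, where 33.2% of all genes were (16.2% higher and 17% lower). The lines did not overlap in 68 members (45.3%) and 106 members (70.7%), against 60.8% and 62% of all genes. Summed levels of 6 primitive endoderm markers were 198 and 209 CPM in corrected lines, 58.7 to 74.9 in control and 57.8 to 79.8 in db/db lines. Most of that sum was Col4a1, and Gata4, Sox17, Pdgfra and Dab2 were also above all other lines, while Gata6 was within the control range. No marker of that list was at 0. Summed levels of 4 neuron markers were 21.5 and 21.6 CPM in corrected, 59.8 to 89.4 in control and 46.1 to 62.8 in db/db lines. Tubb3 made up most of this sum, and only Tubb3 was lower in corrected lines than in both other groups. It was at 13.1 to 14.2 CPM in corrected, 46.4 to 84.1 in control and 29.1 to 46.6 in db/db lines. Map2 was within the control range in corrected lines and was highest in db/db lines. Rbfox3 and Snap25 were under 1 CPM in every line. The part of both lists in the member counts was not tested. The medians were −0.40 and −0.43 against 0.02 and −0.01 over all genes. With library size as the only scaling the corrected against db/db split was 16 higher and 25 lower, and the median of all genes moved to 0.193 and that of the members to −0.225. The counts of 63 and 77 called members rest on both corrected lines: without db_c_1 they were 20 and 28, and without db_c_2 25 and 30. The shares of all genes called without these lines are not given here, so the drop is no result about the members. Summed over the 150, the level was 10939 to 12266 CPM in control, 9714 to 11383 in db/db and 9280 and 9408 in corrected lines. The corrected lines were the lowest of the 10.

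Between corrected and db/db lines, 36 of the 50 called copies with a parent (72%) had a parent called in the same direction, 1 in the opposite direction and 13 a parent that was not called. Between db/db and control lines this was 4 of 17 (23.5%), with 4 in the opposite direction and 9 with a parent not called. The difference between these comparisons was not tested, and they share the db/db lines. Of the 111 copies with a parent, 54 match it at 100% identity and share its reads, so part of the agreement is built in. Gm10359 and Gm12671, equal in every library, both count among the 36, and several copies of Gapdh are set against 1 parent. The 94 parents were called 50 times lower and 5 times higher between corrected and db/db lines, with a median of −0.30, and 5 times lower and 6 times higher between db/db and control lines, with a median of 0.03.

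**Figure D4:**
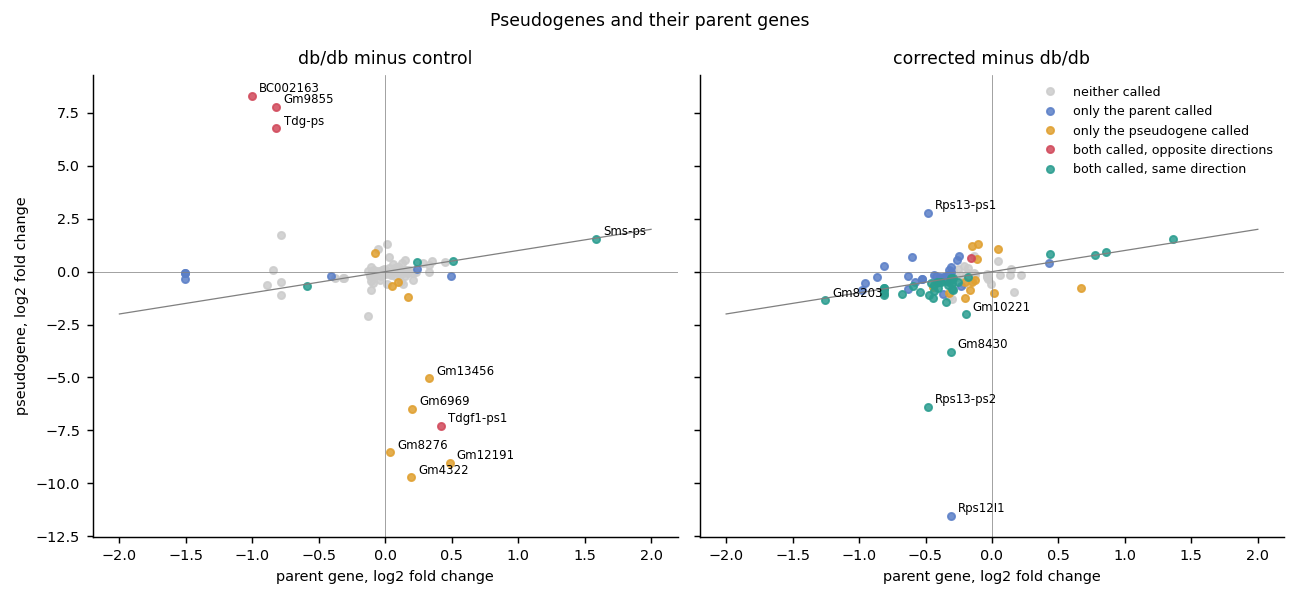
Log2 fold change of 111 pseudogenes (vertical) against that of their parent (horizontal) from the same edgeR fit, for db/db minus control (left) and corrected minus db/db (right). The grey diagonal marks equal change, and colours give which of the pair was called at an adjusted p under 0.05. On the left the switched copies lie far from the diagonal, and on the right most pairs called together lie below 0 on both axes.

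By the role of the parent, copies of cytosolic ribosomal protein genes were the largest group. Members that shared words with 100 or more other genes were left out of the groups by role and are described further below. Of the 26 copies that remained, 12 were lower and 1 higher in corrected than in db/db lines (50% called, against 36.7% of all genes). The median log2 was −0.49 against 0.02 over all genes. Rpl10a-ps1 fell by 0.47 on the log2 scale (adjusted p = 0.0026) and its parent Rpl10a by 0.39 (0.0045), from 532 to 646 CPM for the copy in db/db lines to 481 and 493. Rpl3-ps1 was the copy that rose (0.61, adjusted p = 0.02). Between db/db and control lines 1 of these 26 was lower, Gm12191, and 1 higher, Gm9625 (7.69% called, against 16.9% of all genes). Gm9625, a copy of Rplp0 with 34.6% own words, was at 3.74, 2.53, 4.12 and 2.83 CPM in control lines, 5.62 to 6.28 in db/db lines and 4.02 and 4.97 in corrected lines, while Rplp0 was not called (−0.08, adjusted p = 0.43). The call of Gm9625 ended with the shared name as the unit (adjusted p = 0.21).

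Copies of genes for translation factors (4), the respiratory chain and ATP synthase (5), ubiquitin and proteasome (5), chaperones and cyclophilin (4), RNA binding and splicing (4), glycolysis (3) and chromatin (2) were fewer. These numbers too leave out members that shared words with 100 or more other genes. Left out were all copies of the glycolysis gene Gapdh and Gm15387, a copy of Hmgb1. The Gapdh copies other than Gm13394 were called lower in corrected than in db/db lines (edgeR adjusted p 0.015 to 0.048). Of the chromatin copy left out, Gm15387, no call was made between corrected and db/db lines (−0.126, edgeR adjusted p = 0.19). Between db/db and corrected lines both chromatin copies counted here, 3 of 5 ubiquitin and proteasome copies and 2 of 4 translation factor copies were lower in corrected lines. Over all genes 18% were lower, and 49 of the 150 members were. Classes of 2 to 5 members are too small to be set apart from that share. The 5 respiratory copies held 1 that was lower. Gm8203, a copy of the histone gene H2afz with 100% identity, was at 76.0 to 98.4 CPM in control, 96.4 to 150 in db/db and 50.5 and 55.2 in corrected lines. It fell with its parent between db/db and corrected lines (−1.35 ± 0.19 SE, adjusted p = 0.00074, and −1.25 ± 0.17, adjusted p = 0.00061). Since Gm8203 has no own word, its value and that of H2afz are not separate measurements. Gm6548, a copy of Eef1a1 with 53.3% own words, was at 4.57 to 6.39 CPM in the 8 control and db/db lines and at 2.66 and 2.59 in the corrected lines (−1.27 ± 0.16, adjusted p = 0.00045), while Eef1a1 was not called (−0.20, adjusted p = 0.45).

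Of the 42 with at least 10% own words, 14 were called between db/db and control lines, 4 higher and 10 lower (33.3%, against 16.9% of all genes). The 14 include the switched copies Tdgf1-ps1, Gm4322, Gm6969 and BC002163, whose levels chose them. They also include Gm13456 and Gm8276, which met the 5 CPM rule only through control lines where they were high. The share of 33.3% is therefore a description and is no support for a difference from all genes. Gm11839, a copy of Pabpc4, was lower in db/db (4.95 to 7.76 CPM in control, 2.42 to 3.23 in db/db, 2.27 and 2.23 in corrected lines, adjusted p = 0.0013). It too reached 5 CPM in control lines only. Pabpc4 was not called (0.17, adjusted p = 0.22). Vcp-rs, a copy of the ATPase gene Vcp with 10.5% own words, was at 4.20 to 5.83 CPM in control, 2.61 to 4.29 in db/db and 8.46 and 6.38 in corrected lines. It was lower in db/db than control (adjusted p = 0.03) and higher in corrected than db/db lines (adjusted p = 0.0037, or 0.061 without db_c_1). Sms-ps, a copy of the spermine synthase gene Sms with no own word, followed its parent: it was at 11 to 21.2 CPM in control and 35.4 to 60.7 in db/db lines, and Sms was higher by 1.58 and Sms-ps by 1.55 on the log2 scale (adjusted p 0.0019 and 0.0039, and 0.15 for Sms-ps with the shared name as the unit).

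A further 34 members shared words with 108 to 439 other genes. Among them were all 6 copies of Gapdh, and many others had their best match in the vomeronasal receptor gene Vmn2r79 or in Gm42669, outside the coding sequence. Of the 150, 26 matched a parent only outside its coding sequence. Of the 34, 8 were lower and 1 higher in db/db than control lines, 13 lower and 1 higher in corrected than db/db lines, and 16 lower and 2 higher in corrected than control lines. The shares called were 26.5%, 41.2% and 52.9%, against 16.9%, 36.7% and 33.2% of all genes, and the second is near the background. Gm48493, on chromosome 13 with 1.63% own words, was at 393, 547, 371 and 565 CPM in control lines, 219, 236, 239 and 328 in db/db lines and 172 and 165 in corrected lines. It fell in both steps (adjusted p = 0.0069 for db/db against control and 0.012 for corrected against db/db). Gm42927 and Gm48128 had the same order of groups, with means of 315, 184 and 123 CPM and of 178, 100.3 and 71.5 CPM. Summed over the 34, the level was 2205 to 2950 CPM in control, 1895 to 2438 in db/db and 1625 and 1645 in corrected lines.

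Of the 30 members called between db/db and control lines, the mean of the corrected lines was nearer to the db/db mean than to the control mean (log2 of CPM + 0.5) for 23. Of the 30, 18 were also called between corrected and control lines in the same direction. The same shares were not computed over the 3332 genes called between db/db and control lines, so neither count shows a trait of pseudogenes. The 7 nearer to control were Gm8203, Pdcd5-ps, AC124237.1, Gm13394, Gm47924, Gm48368 and Vcp-rs. AC124237.1 was at 13.9 to 15.8 CPM in control, 3.39 to 6.26 in db/db and 11.4 and 10.4 in corrected lines, and no line of 1 group overlapped another group. Gm48368 was at 83.0 to 109 CPM in control, 25.8 to 70.2 in db/db and 132 and 129 in corrected lines. Its nearest coding gene by sequence, Noct, had the same order (872 to 1442, 530.5 to 635.5, 1797 and 1869 CPM), but the match lies outside the coding sequence.

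The db/db line bdb_db7 stood with the corrected lines in part of the members. In 24 of 150 members (16%) the 6 libraries of bdb_db7 and the corrected lines all lay outside the range of the other 13 libraries, compared with 1257 of 19700 genes (6.38%). Of the 63 members called between corrected and db/db lines, bdb_db7 was nearer to the corrected mean in 30 (47.6%), compared with 13.7% of all 7235 genes called. Gm6158, a copy of part of Cnot1 (scaffold of the CCR4-NOT deadenylase) on chromosome 14, was listed at 0 in all 6 of these libraries and at 2.90 to 9.08 CPM in the other 13. Rps13-ps2 was at 19.9 to 64.7 CPM in those 13 libraries and at 0 to 1.33 in the 6, and Rps13-ps1 ran the other way, with 9.41 to 100.02 CPM in the 6 and 0 to 9.81 in the 13, which overlap. The duplicates of db_c_1 differed in Rps13-ps1 (100.02 and 10.9 CPM), and Rps13 itself was lower in the library where its copy was higher (380 against 483 CPM).

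**Figure D5:**
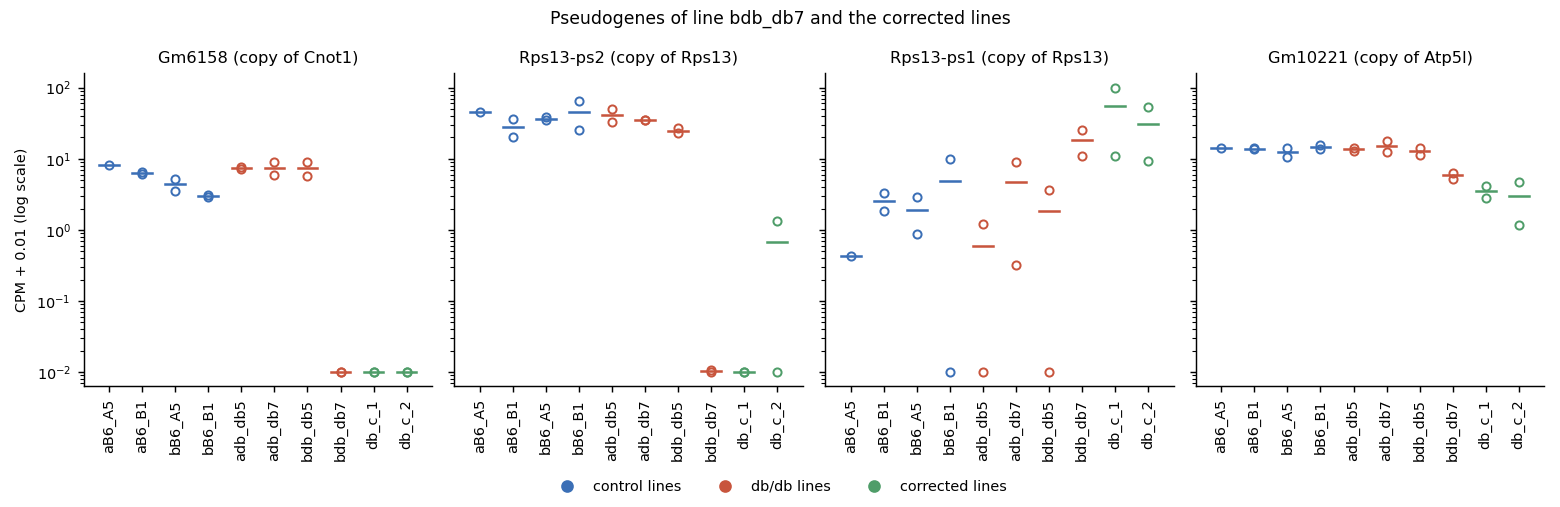
CPM + 0.01 (log scale) of 4 pseudogenes by line, with circles for libraries and bars for the mean of a line. Gm6158 and Rps13-ps2 are at or near 0 in bdb_db7 and the corrected lines, Gm10221 is lower there, and the duplicates of Rps13-ps1 lie far apart.

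Gm10221, a copy of Atp5l with no own word, was at 12.5 to 14.7 CPM in control lines, 12.9 to 15.4 in adb_db5, adb_db7 and bdb_db5, 5.85 in bdb_db7 and 3.56 and 3.08 in corrected lines. It fell in corrected against db/db lines (−2.02 ± 0.34 SE, adjusted p = 0.0017), and Atp5l fell by 0.20 (adjusted p = 0.047). Without bdb_db7 and the second library of adb_db7, an alternative chosen after seeing the data, 72 members were called between corrected and db/db lines and 32 between db/db and control lines. The shares of all genes called in that fit are not given here, so these counts are no result about the members.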

How the data were processed

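Poly(A) RNA libraries were made with a stranded TruSeq kit, as the protocols in the labels state. A single table was deposited by the authors, with estimated counts per Ensembl gene, made with kallisto on GRCm38, per the submitters' processing notes. Its version and index, and how transcripts were summed to genes, were not given in the sources used here. Counts were rounded per library and summed per line. All 3 groups entered 1 edgeR 4.0.16 fit (quasi-likelihood F-test, filterByExpr, TMM, Benjamini-Hochberg over 19700 genes, threshold 0.05). All 150 members passed the filter. On simulated counts (19095 genes tested, db/db against control) the fit called 100% of genes changed 2-fold or 4-fold and 9 unchanged genes. The simulated lines were independent, with 1 dispersion for all genes and changes only in genes at 5 CPM or more. Lines of a shared name were not made alike and copies shared no reads, so the simulation does not measure the error in these data. Parents came from BLAST 2.17.0 (E value at most 1e-05) against coding transcripts of GENCODE M21. Members, classes and named genes were chosen with earlier results of these data known, and the 50% coding cover, the 10% own-word limit and the class of widely shared words after seeing these values. Named were members on in 1 group and off in the other, up to 6 rises and 6 falls per comparison with no overlap of lines and 5 CPM or more, the 10 highest, and members on in 1 shared name only, with their parents and hosts. No paired design entered the fit. DESeq2 1.42.0 was an alternative. Python 3.11.15 and R 4.3.3 were used.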

Additional observations from a re-analysis of the deposited data

Results flagged for a closer look

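In 39 named members, 194 groups of lines or libraries were examined for a sample far from the others of its group, and 15 such values were found. Chance gives about 1 in 20 groups where values are independent with a normal spread. Duplicates of a line, lines of a shared name and values near 0 are not such values, so the 15 cannot be judged by that rate. Among lines, bdb_db7 was at 0 CPM for Gm6158 beside 7.31 to 7.63 in the other db/db lines, and adb_db7 was at 9.16 CPM for Gm47924 beside 14.9 to 16. Line aB6_B1 was at 1.72 CPM for Gm11225 beside 1.16 to 1.18, and aB6_A5 at 47.1 CPM for Gm7336 beside 51.6 to 52.3. For Gm4322, which is off in db/db lines, adb_db7 was at 0.032 CPM beside 0.0137 to 0.0154. Among single libraries, the first of db_c_1 was at 418 CPM for Eif4a-ps4 beside 302 to 316 in the other corrected libraries. The second library of bB6_A5 was at 10.6 CPM for Gm10221 beside 13.5 to 15.7, the second of aB6_B1 at 2.23 CPM for Gm11225 beside 1.1 to 1.27, and the first of aB6_B1 at 515 CPM for Gm48348 beside 555 to 585. Rps13-ps1 was at 9.81 CPM in the second library of bB6_B1 beside 0 to 3.31, and at 25.3 CPM in the second of bdb_db7 beside at most 11.1. Rps13-ps2 was at 1.33 CPM in the first library of db_c_2, with the other corrected libraries at or near 0. Tdg-ps was at 0.277 CPM in the second library of bB6_B1 beside 0 to 0.103. Gm4322 was at 0.0747 CPM in the second library of adb_db7 beside 0 to 0.0299, and at 0.0343 CPM in the second of db_c_2 beside 0.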

How the results depend on the processing

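The 5 switched members remained the same 5 under a limit for off of 0.5 CPM, under TMM-scaled CPM, in every single library, and without each control or db/db line. A limit for off of 2 CPM added Gm13456 and a limit for on of 3 CPM added Tdg-ps, giving 6 each. The number of members was 112 to 162 under other limits. Between db/db and control lines 30 members were called, 7 with the shared name as the unit (34 of 21134 genes in all), which were the 5 switched members, Gm13456 and Tdg-ps. Those 7 were chosen or named by their levels in these lines, so their calls are a description. With each library as a sample 57 were called, 52 with only the 2 groups, and 52 with the duplicate number as a replicate block. Duplicates with the same number deviated together at r = 0.0115 to 0.531 over 12 pairs of lines (Spearman 0.141 to 0.547), so the number was taken as a shared number only. Among members with at least 10% own words 14, 15 and 26 were called in the 3 comparisons, a smaller set by construction. Without 1 line the count was 19 to 33 for db/db against control, 20 to 71 for corrected against db/db and 28 to 82 for corrected against control, and the shared name as the unit gave 37 and 47 for the latter. Library size alone gave 41 for corrected against db/db. Where no share of all genes called in the same setting stands beside a count, the count describes the setting and is no result about the members. The share of called copies with a parent called in the same direction rose from 52.5% to 70.6% for corrected against control where symbol and sequence named the same parent, and the cause was not tested. No named member reversed under any setting run, and 722 values of named genes kept their call status while 48 lost the call. Ndufs5 and Tdg lost it only with the shared name as the unit (adjusted p 0.22 and 0.18). Calls of Gm11225, Gm14300, Gm19220, Gm48368, Gm6158, Gm7336, Rps13-ps1, Rps13-ps2 and Vcp-rs in the corrected lines ended without db_c_1 or db_c_2, or both. Depth does not change that every word of a copy without own words occurs in another annotated gene, though not always in its parent. Gm12191, for example, shares 287 of its 318 words with Rpl30.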

Other observations

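Gm9855 and BC002163, which were on in db/db lines, and Tdg-ps, which was under 5 CPM in the db7 lines, were each higher in both db5 lines than in both db7 lines, and both corrected lines were near or below the db7 lines. The chromosome medians of the lines, taken over genes with a mean of 10 CPM or more, were near 0 on 2 of the chromosomes of these copies: chromosome 10 was at 0.0106 and 0.00284 for db5 and −0.0199 and −0.0249 for db7 on the log2 scale, and chromosome 16 at −0.0124 and −0.0047 for db5 and −0.0185 and −0.00509 for db7. Chromosome 15, which holds Tdg-ps, was at 0.322 and 0.321 in the A5 control lines, −0.0204 and −0.0265 in db5 and −0.0865 and −0.112 in db7 lines. Chromosome 3, which holds Gm8276, was at −0.115 and −0.0952 in the B1 lines, where Gm8276 was on, and at 0.26 and 0.315 in the db7 lines, where it was off. Zbtb20, the host gene of BC002163, was at 1.24 to 2.65 CPM in control, 1.87 to 4.03 in db/db and 2.37 and 2.85 in corrected lines and was not called in any comparison (adjusted p 0.31, 0.75 and 0.56).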
